A study of Homo sapiens with 24 samples.

Results

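Gene expression was compared between 293T cells that lacked both ZFX and ZNF711 and had been given back wild-type ZFX, and the same cells given an empty plasmid. The comparison used 6 RNA-seq libraries of the 24 in the series: 3 titled wtZFX and 3 titled pCMV6. 293T is an established human embryonic kidney line, and every library compared here carries the ZFX/ZNF711 knockout genotype (DKO cells). The wtZFX cells were transfected with a FLAG-tagged wild-type ZFX construct, and the pCMV6 cells with the empty vector pCMV6-Entry. All genes with enough reads were taken, 19376 of the 58721 genes in the deposited counts. A further 3 DKO libraries received a ZFX construct named ZFX12_13, whose changes the labels do not describe. In addition, 3 siZFX and 3 siControl libraries of LN-229, a human glioblastoma line, are given beside some results. The labels do not say whether the DKO line is 1 clone, how much plasmid each culture received or what share of cells took it up. Untransfected DKO cells and parental 293T cells are not analysed here. The series calls the 3 libraries of a group biological replicates without naming separate cultures, so the p-values rest on the spread among these libraries, and that spread may be technical only.

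ZFX is a zinc finger protein encoded on the X chromosome that activates transcription, and it binds mainly at promoters within CpG islands, often just downstream of the start site. ZFY, its counterpart on the Y chromosome, and ZNF711, also on the X chromosome, are close paralogs with similar zinc fingers, and more than 1 of them can act at the same promoters. Removing ZFX and ZNF711 together and then returning ZFX therefore asks which transcripts differ when the factor is supplied again.

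ZFX (GRCh38 chrX:24149173-24216255, plus strand) had 16936, 14606 and 15060 CPM (counts scaled to library size) with wtZFX, against 218, 218 and 235 CPM with pCMV6. The groups lay far apart (log2 change 6.12, SE 0.14, adjusted p = 7.3e-10), and reads from the construct and from the cells' own gene cannot be told apart in gene counts. ZFX took 1.45% to 1.68% of all gene counts with wtZFX, against 0.0220% to 0.0239% with pCMV6. The pCMV6 libraries still held 4649 to 4806 reads on the knocked-out gene, and gene counts do not show whether such transcripts encode a protein. ZNF711, the other knocked-out gene, averaged 263 ± 13.3 CPM with wtZFX and 306 ± 6.44 CPM with pCMV6, without overlap (log2 change -0.22, SE 0.05, adjusted p = 8.3e-04). It still held 6004 to 6919 reads in the pCMV6 libraries, and gene counts do not show whether these transcripts encode a protein either. ZFY had 3, 0 and 3 reads with wtZFX and 0 in each pCMV6 library, too few to test.

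The 6 libraries held 19495791 to 24272308 reads on genes. Unmapped reads made up 3.53% to 3.55% of wtZFX reads and 5.13% to 5.44% of pCMV6 reads, and mitochondrial genes took 2.57% to 2.67% and 2.62% to 2.73% of gene counts. Along the first principal component, 48.9% of the variance of all 9 DKO libraries, wtZFX lay at -26.7 to -25.3 and pCMV6 at 47.9 to 49.9, and no library stood apart from its group. All 16 marker genes of 293T were above 1 CPM on average in both groups, and their summed level was 1202 to 1237 CPM with wtZFX and 1147 to 1161 CPM with pCMV6. The 15 LN-229 markers summed to 204 to 218 CPM with wtZFX and 176 to 179 CPM with pCMV6, with 4 and 5 of them under 1 CPM. The 10 markers of blood and endothelium summed to 14.8 to 15.2 CPM with wtZFX and 8.83 to 10.7 CPM with pCMV6. In both groups 8 of those 10 were under 1 CPM, and PTPRC and CD3E, the defining leukocyte genes, had at most 0.0982 CPM in any of these 6 libraries.

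With wtZFX, 4488 genes (23.2% of those tested) were higher and 3714 (19.2%) were lower than with pCMV6 at an adjusted p under 0.05 (edgeR quasi-likelihood test, Benjamini-Hochberg). The median fold was 1.48 among the higher genes and 1.24 among the lower ones, and 2197 genes (11.3%) rose by at least 1.5-fold while 530 (2.74%) fell by as much. At least 4-fold, 343 genes rose and 5 fell, and at least 8-fold 118 rose and 0 fell. The 3 libraries of one group did not overlap with those of the other for 4409 of the higher and 3613 of the lower genes. These genes were called from the same libraries, so the counts describe the calls and are no separate support. The share without overlap over all tested genes is not given. A gene count in bulk RNA is a share of the library, so a change in some of the cells and a smaller change in all of them cannot be told apart. The direction of the majority depended on the scaling and on the offsets used: upper-quartile factors gave 4134 higher and 4356 lower genes, and offsets for GC content and transcript length, added after seeing the data, gave 3987 higher and 5349 lower, which moved the share of higher genes among the called to 42.7%, against 54.7%.

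**Figure D1:**
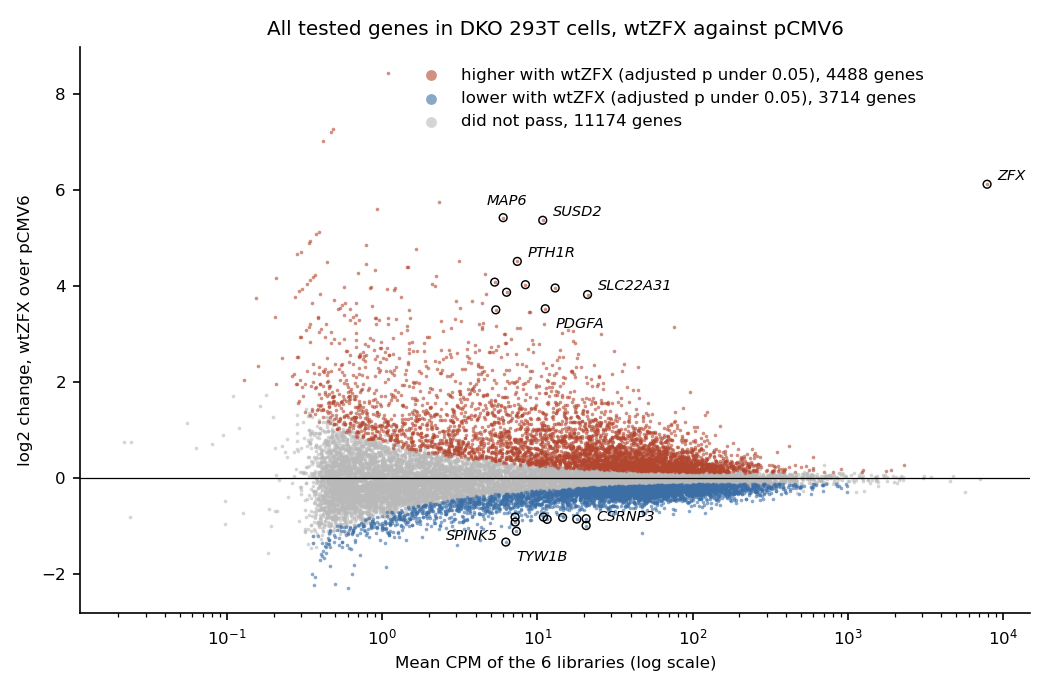
Each point is 1 of the 19376 tested genes, with the mean CPM of the 6 libraries on a logarithmic horizontal axis and the log2 change of wtZFX over pCMV6 on the vertical axis. Red marks the 4488 higher and blue the 3714 lower genes, open circles mark ZFX and the 20 leading genes, and the upward spread is wider than the downward spread.

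Part of the response consisted of genes that lay under 1 CPM with the empty vector. In all 3 pCMV6 libraries 2547 tested genes lay under 1 CPM, and 215 of them reached at least 1 CPM in all 3 wtZFX libraries, 143 of them protein-coding and 205 of them called. The reverse, under 1 CPM in all wtZFX libraries and at least 1 CPM in all pCMV6 libraries, held for 64 genes, 19 of them protein-coding and 44 called. Of all tested genes, 1929 would not have passed the expression filter on the pCMV6 libraries alone, and 477 of these were called higher and 16 lower. Of protein-coding genes 28.0% were higher and 21.3% lower, of lincRNAs 10.6% and 13.1%, of antisense RNAs 8.51% and 11.8%, and of pseudogenes 8.13% and 13.0%. The median level of protein-coding genes over the 6 libraries was 31.0 CPM, against 1.21 to 1.27 CPM for these other classes. Rises of at least 1.5-fold made up 13.0%, 18.5%, 11.1% and 2.68% of genes by rising quartile of mean CPM. In the most abundant quartile 22.4% of genes were higher and 28.2% lower.

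The 10 protein-coding genes with the largest rises, at a mean of at least 5 CPM and without overlap of libraries, were MAP6, SUSD2, PTH1R, TMIE, NR5A1, WNT7B, CABP7, SLC22A31, PDGFA and ATP2B3, with folds of 11.3 to 42.9. They were chosen for these values, which are therefore a description. MAP6, which stabilises neuronal microtubules, had 13.1, 9.82 and 12.4 CPM with wtZFX, against 0.272, 0.188 and 0.353 CPM with pCMV6 (log2 change 5.42, SE 0.21, adjusted p = 1.3e-15). SUSD2, a membrane glycoprotein with a sushi domain, had 20.5, 21.4 and 21.6 CPM with wtZFX, against 0.543, 0.422 and 0.555 CPM with pCMV6 (log2 change 5.37, SE 0.15, adjusted p = 7.1e-18). Both were near 0 in every pCMV6 library and above 9 CPM in every wtZFX library. PTH1R encodes the receptor for parathyroid hormone and had 14.5, 14.4 and 13.8 CPM with wtZFX, against 0.679, 0.469 and 0.707 CPM with pCMV6 (log2 change 4.51, SE 0.15, adjusted p = 1.3e-16). TMIE, a component of the mechanotransduction complex of inner ear hair cells, had 10.5, 10.5 and 9.16 CPM with wtZFX, against 0.634, 0.375 and 0.757 CPM with pCMV6 (log2 change 4.08, SE 0.21, adjusted p = 8.4e-14). NR5A1 encodes steroidogenic factor SF-1, a nuclear receptor of adrenal and gonadal cells, and had 15.2, 15.5 and 16.7 CPM with wtZFX, against 1.18, 1.22 and 0.454 CPM with pCMV6 (log2 change 4.03, SE 0.19, adjusted p = 6.1e-14). The lowest wtZFX value of each of these genes was several times its highest pCMV6 value.

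Among the others, the secreted signalling protein WNT7B had 25, 23 and 25.4 CPM with wtZFX, against 1.09, 1.78 and 1.87 CPM with pCMV6 (log2 change 3.96, SE 0.14, adjusted p = 1.9e-16). SLC22A31, of the SLC22 family of transporters, had 38.4, 40.6 and 38.9 CPM with wtZFX, against 2.13, 2.77 and 3.48 CPM with pCMV6 (log2 change 3.82, SE 0.12, adjusted p = 4.1e-17). PDGFA, a ligand of platelet-derived growth factor receptors, had 21.5, 21.1 and 19.4 CPM with wtZFX, against 2.04, 1.45 and 1.87 CPM with pCMV6 (log2 change 3.53, SE 0.12, adjusted p = 1.8e-16), and ATP2B3, a plasma membrane calcium pump, had 11.2, 8.72 and 9.87 CPM with wtZFX, against 1.27, 0.469 and 0.858 CPM with pCMV6 (log2 change 3.50, SE 0.21, adjusted p = 1.4e-12). CABP7, a calcium-binding protein, had 11.7, 11.5 and 12.4 CPM with wtZFX, against 1.04, 0.704 and 0.656 CPM with pCMV6 (log2 change 3.87, SE 0.18, adjusted p = 1.6e-14), but only 35.6% of its reads in the summed stranded counts entered the unstranded count, and it overlaps another gene on the opposite strand. With both stranded columns summed, all 10 remained called in the same direction.

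The promoter windows of the first 4 leading rises and the first 2 leading falls that have a usable entry are printed, to show the sequence at these start sites. Each runs from 250 bases before to 50 bases after the first listed start in RefSeq on GRCh38.p14, 5′ to 3′ on the gene's strand. Capitals mark AGGCCT, the core letters reported for ZFX binding, which read the same on both strands. These letters occur in 2995 of 27305 RefSeq windows of this length (10.97%). MAP6, SUSD2 and WNT7B had no entry. SPINK5 and CSRNP3 were passed over after their windows had been seen, since the listed start lies well inside the counted gene. The printed TMIE and CABP7 windows end before the counted genes begin, at chr3:46694528 and chr22:29720084. The windows are PTH1R at chr3:46877471-46877770 (plus strand), TMIE at chr3:46693528-46693827 (plus), NR5A1 at chr9:124507350-124507649 (minus), CABP7 at chr22:29719753-29720052 (plus), TYW1B at chr7:72828151-72828450 (minus) and ENPP5 at chr6:46170931-46171230 (minus).
PTH1R: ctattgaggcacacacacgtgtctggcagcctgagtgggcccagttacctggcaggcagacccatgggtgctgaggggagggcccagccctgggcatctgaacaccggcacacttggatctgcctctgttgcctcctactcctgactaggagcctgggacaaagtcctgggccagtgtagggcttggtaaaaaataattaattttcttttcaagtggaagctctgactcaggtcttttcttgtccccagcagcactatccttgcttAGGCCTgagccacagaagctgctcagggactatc
TMIE: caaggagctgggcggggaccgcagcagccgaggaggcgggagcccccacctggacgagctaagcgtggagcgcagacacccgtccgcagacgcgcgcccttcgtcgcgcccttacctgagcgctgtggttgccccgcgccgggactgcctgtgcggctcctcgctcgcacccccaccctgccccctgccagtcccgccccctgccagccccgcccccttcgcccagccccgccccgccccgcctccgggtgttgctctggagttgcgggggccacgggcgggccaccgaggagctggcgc
NR5A1: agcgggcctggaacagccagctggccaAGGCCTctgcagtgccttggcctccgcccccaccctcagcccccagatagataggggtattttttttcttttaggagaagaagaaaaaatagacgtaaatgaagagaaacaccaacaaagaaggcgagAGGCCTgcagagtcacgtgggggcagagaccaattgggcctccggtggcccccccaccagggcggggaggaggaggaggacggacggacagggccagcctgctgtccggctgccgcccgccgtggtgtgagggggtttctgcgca
CABP7: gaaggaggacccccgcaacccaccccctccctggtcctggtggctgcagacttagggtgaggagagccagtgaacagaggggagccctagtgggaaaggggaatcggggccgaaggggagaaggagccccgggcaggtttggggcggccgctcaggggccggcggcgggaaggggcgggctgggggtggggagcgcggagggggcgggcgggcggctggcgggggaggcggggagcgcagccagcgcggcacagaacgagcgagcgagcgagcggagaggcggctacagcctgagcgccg
TYW1B: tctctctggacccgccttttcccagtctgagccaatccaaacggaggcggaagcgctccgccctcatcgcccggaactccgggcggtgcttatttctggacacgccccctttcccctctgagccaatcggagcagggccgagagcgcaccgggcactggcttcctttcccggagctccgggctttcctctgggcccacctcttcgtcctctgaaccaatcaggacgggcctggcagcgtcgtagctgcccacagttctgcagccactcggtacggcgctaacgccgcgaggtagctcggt
ENPP5: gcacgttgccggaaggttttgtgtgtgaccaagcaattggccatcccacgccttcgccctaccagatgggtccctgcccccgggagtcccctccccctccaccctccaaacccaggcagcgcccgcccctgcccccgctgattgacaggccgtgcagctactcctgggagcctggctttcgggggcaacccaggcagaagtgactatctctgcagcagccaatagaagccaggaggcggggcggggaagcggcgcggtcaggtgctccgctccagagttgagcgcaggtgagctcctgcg
The PTH1R window holds the letters once, beginning 17 bases after the start site, and the NR5A1 window holds them at 223 and 95 bases before it. The windows of TMIE and CABP7, which also rose, and of TYW1B and ENPP5, which fell, do not hold them. A match of letters is a description of the window and not a binding site. A window was found for only 71.1% of the higher and 71.9% of the lower genes, and no comparison of the letters between them is made.

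The 10 leading falls were TYW1B, SPINK5, CSRNP3, ENPP5, NEK10, GORAB, RAB30, TRIM46, RGL1 and SPRY3, with folds of 1.75 to 2.51. TYW1B, a paralog of the tRNA-modifying enzyme TYW1 whose near-identical copy can share reads with it, had 4.02, 4.14 and 2.61 CPM with wtZFX, against 8.06, 9.76 and 8.98 CPM with pCMV6 (log2 change -1.33, SE 0.15, adjusted p = 1.4e-07). SPINK5, a serine protease inhibitor of epithelia, had 4.61, 4.59 and 4.77 CPM with wtZFX, against 11, 10.7 and 8.38 CPM with pCMV6 (log2 change -1.10, SE 0.13, adjusted p = 1.3e-07), and CSRNP3, a cysteine- and serine-rich nuclear protein, had 13.1, 14.7 and 13.7 CPM with wtZFX, against 27.8, 26.9 and 27.5 CPM with pCMV6 (log2 change -0.99, SE 0.08, adjusted p = 6.0e-10). In each case every wtZFX library lay below every pCMV6 library, and no gene fell to near 0. GORAB and RAB30 both encode proteins of the Golgi apparatus, a golgin and a small GTPase. GORAB had 11.4, 13.7 and 13.3 CPM with wtZFX, against 23, 23 and 23.3 CPM with pCMV6 (log2 change -0.85, SE 0.09, adjusted p = 3.6e-08). RAB30 had 14.3, 14.7 and 15.3 CPM with wtZFX, against 28.8, 28.5 and 22 CPM with pCMV6 (log2 change -0.84, SE 0.09, adjusted p = 1.0e-07), with 1 pCMV6 library lower than the other two and still above all wtZFX libraries. SPRY3, of the Sprouty family that dampens receptor tyrosine kinase signalling, had 7.71, 9.12 and 7.09 CPM with wtZFX, against 15.1, 13 and 13.5 CPM with pCMV6 (log2 change -0.81, SE 0.12, adjusted p = 4.4e-06). ENPP5, NEK10, TRIM46 and RGL1 fell by 0.91, 0.86, 0.82 and 0.81 on the log2 scale.

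**Figure D2:**
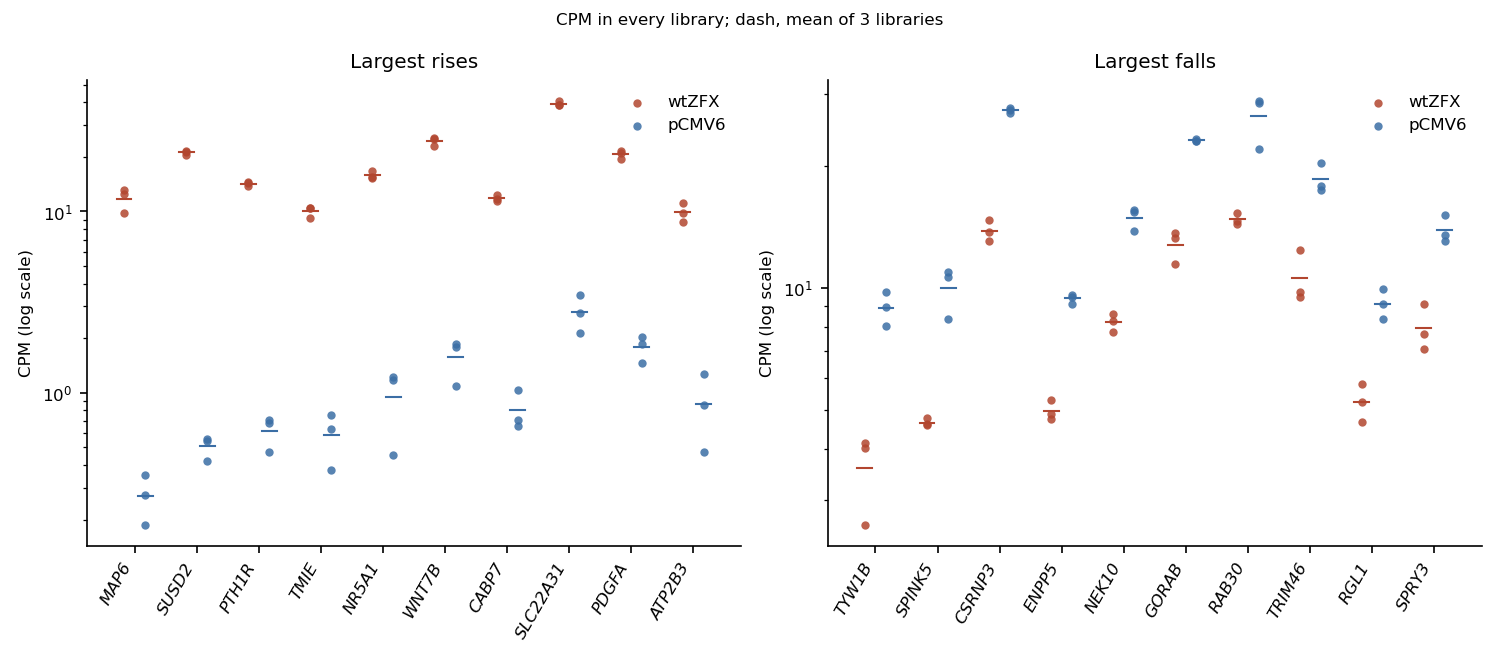
CPM of the 10 leading rises (left) and the 10 leading falls (right) in every library on logarithmic axes, with wtZFX in red and pCMV6 in blue for each gene and a dash at the mean of 3 libraries. No gene overlaps between the groups, since the rule required it, and the rises span 11.3- to 42.9-fold while the falls span 1.75- to 2.51-fold.

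By difference in CPM, which is not per length and so favours long transcripts, the largest rises outside ZFX included genes of the cytoskeleton. ACTG1, cytoplasmic gamma-actin, had 2479.8, 2617 and 2442 CPM with wtZFX, against 2099, 2057 and 2059.6 CPM with pCMV6 (log2 change 0.28, SE 0.04, adjusted p = 1.4e-05), FLNA, an actin cross-linker, had 505, 545 and 487 CPM with wtZFX, against 324, 312 and 324 CPM with pCMV6 (log2 change 0.68, SE 0.07, adjusted p = 3.1e-08), and MYH9, a non-muscle myosin, had 684, 693 and 671 CPM with wtZFX, against 492, 496 and 516 CPM with pCMV6 (log2 change 0.45, SE 0.05, adjusted p = 9.3e-08). The call for ACTG1 was lost with GC and length offsets (log2 change 0.08, adjusted p = 0.0548), whereas those for FLNA and MYH9 held. AHNAK2, a large scaffold protein, had 143, 142 and 127 CPM with wtZFX, against 15.6, 15.6 and 15.3 CPM with pCMV6 (log2 change 3.14, SE 0.12, adjusted p = 5.8e-11), and HMGA1, a chromatin protein, averaged 417 ± 13.9 CPM with wtZFX and 284 ± 3.2 CPM with pCMV6 (log2 change 0.55, adjusted p = 7.9e-10). On the other side, OGT, the enzyme that adds O-linked N-acetylglucosamine to proteins, averaged 885 ± 31.8 CPM with wtZFX and 1088 ± 0.905 CPM with pCMV6 (log2 change -0.30, adjusted p = 2.6e-04). DNMT1, the maintenance DNA methyltransferase, averaged 430.1 ± 11.4 CPM with wtZFX and 539.7 ± 3.87 CPM with pCMV6 (log2 change -0.33, adjusted p = 7.9e-06), and the linker histone gene H1F0 averaged 516 ± 44.9 CPM with wtZFX and 644 ± 19.8 CPM with pCMV6 (log2 change -0.32, adjusted p = 3.7e-05). These shifts were small in fold and larger than the spread between libraries (SD, n = 3 each). JUN, PRRC2A, MYCBP2, MORF4L2 and DDX5, also among the 10 largest falls in CPM, lost their call when at least 1 library was left out, as did HSP90AA1, CANX, HSP90B1 and PABPC1 among the rises.

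Of 38 gene lists written from general knowledge, those with at least 13 members tested and the highest share of higher genes held interferon-induced genes, receptor tyrosine kinases and the Wnt pathway, and those with the highest share of lower genes held acetyltransferase complexes and DNA replication. Beside each count stand the 23.2% higher and 19.2% lower of all tested genes and their median log2 change of -0.02. Lists differ in GC content, and calls followed GC content in these libraries. Across quartiles of rising transcript GC content, 11.3%, 16.6%, 24.04% and 40.8% of tested genes were higher and 29.7%, 22.4%, 15.1% and 9.41% were lower with wtZFX. The gap in level between the top and bottom GC quartile, as a median log2 deviation from the mean of all 9 DKO libraries, was 0.06 to 0.14 in wtZFX libraries and -0.17 to -0.12 in pCMV6 libraries. In ZFX12_13 libraries it was 0.01 to 0.15. Whether this gradient arose in the cells or in the making of the libraries was not tested. For each list described in the text below, counts that moved by over 1.5 times with GC and length offsets are given here or beside the list. With the offsets, lower genes numbered 5 of the 293T markers, 8 channels, 14 ATF4 targets, 13 cholesterol genes and 14 glycolysis and hypoxia genes. Higher genes numbered 5 Polycomb group genes, 5 mitotic genes, 3 ATF4 targets and 2 ribosome biogenesis genes. The median transcript GC content of all tested genes was 48.7%. Members that would not have passed the filter on the pCMV6 libraries alone numbered 2 receptor tyrosine kinases (both higher), 2 collagen and basement membrane genes (1 higher), 2 neuronal genes (1 higher) and 1 Notch gene (higher), beside those given below.

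**Figure D3:**
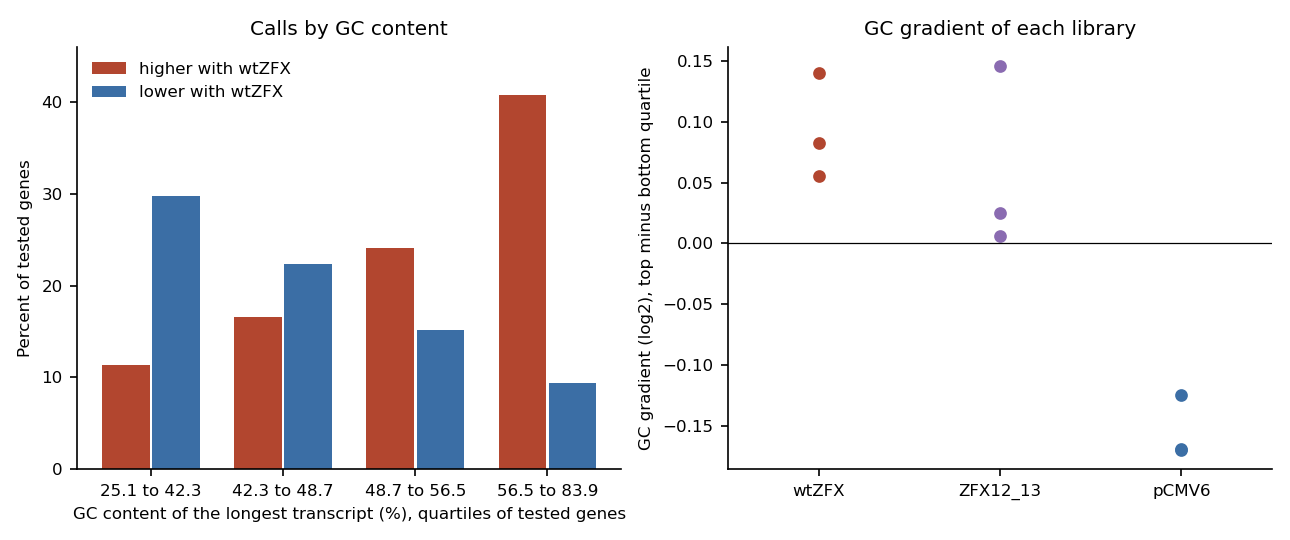
Left, percent of tested genes higher (red) and lower (blue) with wtZFX than with pCMV6, by quartile of the GC content of the longest transcript. Right, the GC gradient of each library (log2), 0.06 to 0.14 with wtZFX, 0.01 to 0.15 with ZFX12_13 and -0.17 to -0.12 with pCMV6, 3 points a group.

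**Figure D4:**
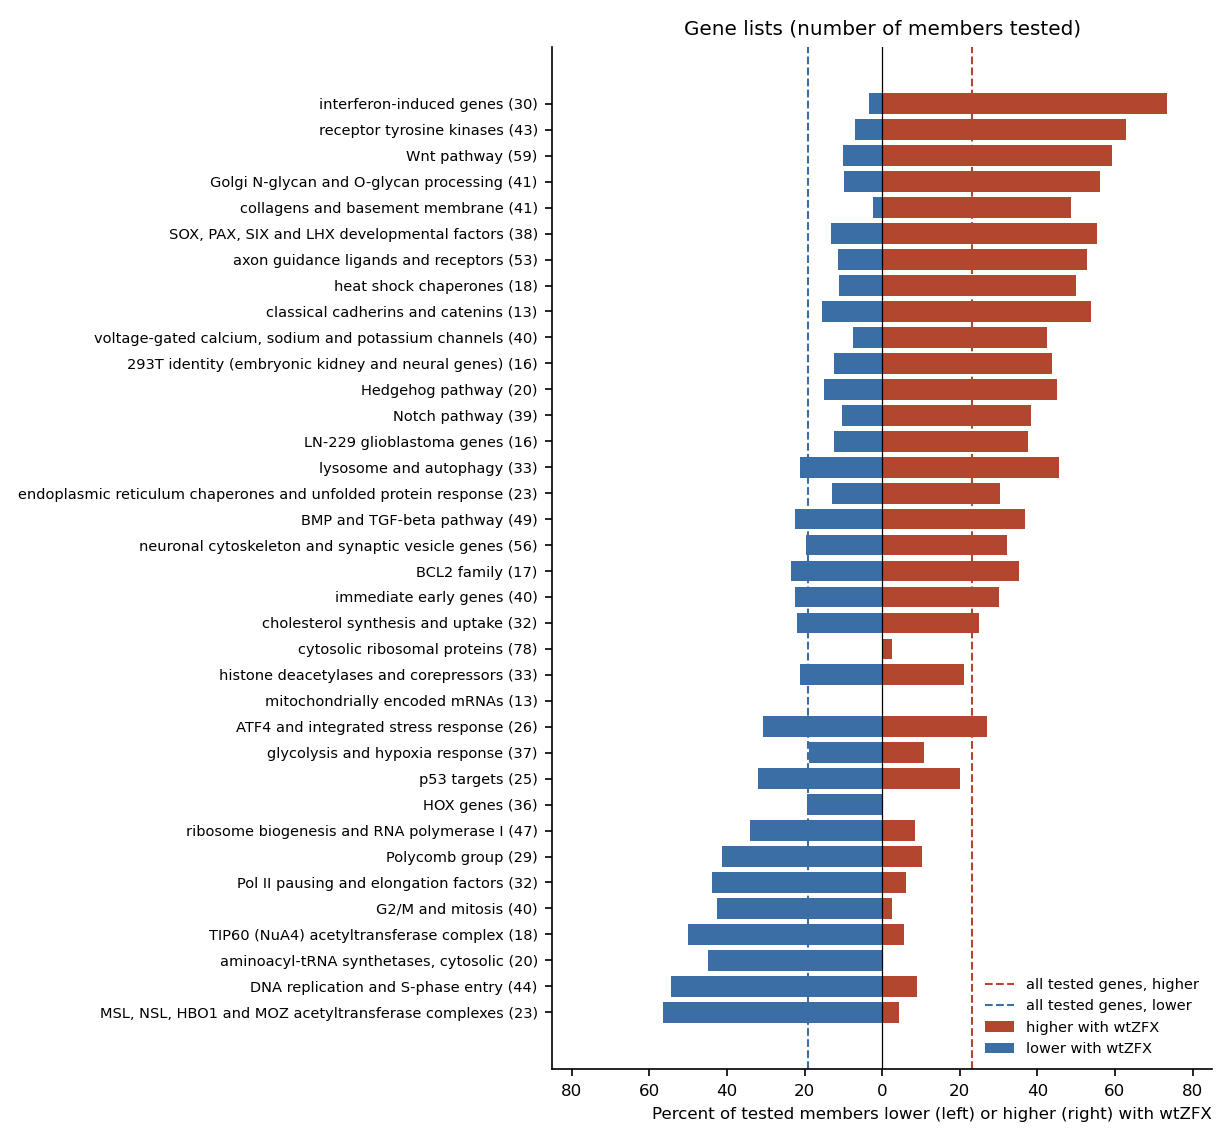
Percent of the tested members of each gene list that were higher (red, right) or lower (blue, left) with wtZFX than with pCMV6, with the number tested in brackets, for lists with at least 13 members tested. Dashed lines mark 23.2% higher and 19.2% lower over all tested genes, and the interferon-induced genes reach 73.3% higher.

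Interferon-induced genes, the antiviral effectors and sensors that cells switch on after sensing foreign nucleic acid or interferon, were higher with wtZFX for 22 of 30 tested members (38 listed), and 1 fell (median log2 change 0.93). Of the tested members, 5 would not have passed the filter on the pCMV6 libraries alone, and all 5 are among the 22 higher genes. All 4 IFIT genes, 3 of 3 tested OAS genes and the RNA sensors IFIH1, DDX58 and DHX58 rose. IFIT2, which blocks translation of foreign RNA, had 6.04, 7.83 and 7.54 CPM with wtZFX, against 1.77, 1.83 and 1.16 CPM with pCMV6 (log2 change 2.16, SE 0.18, adjusted p = 4.0e-10). OAS2, an RNA-activated synthetase, had 1.18, 1.55 and 1.87 CPM with wtZFX, against 0.136, 0.188 and 0.505 CPM with pCMV6 (log2 change 2.49, SE 0.45, adjusted p = 9.0e-05), and the chemokine CCL5 had 2.26, 2.34 and 2.45 CPM with wtZFX, against 0.589, 0.563 and 0.303 CPM with pCMV6 (log2 change 2.25, SE 0.27, adjusted p = 2.8e-07). All of these were low transcripts under the empty vector, and CXCL10, another chemokine, stayed below 1 CPM in both groups (log2 change 2.16, adjusted p = 8.8e-04). IFNB1 and IFNL1, the interferons on the list, had too few reads to be tested. Of the 5 STAT and IRF factors on the list 2 rose, STAT2 fell, and IRF7 and IRF9 did not pass the test. The list's median GC content was 48.6%, and with GC and length offsets 22 members were higher and 2 lower. IFIT2 averaged 6.46 ± 0.538 CPM with ZFX12_13, not detectably different from wtZFX (log2 change 0.15, adjusted p = 0.54), and OAS2, CCL5 and CXCL10 did not differ detectably from ZFX12_13 either, with edgeR adjusted p-values of 0.852, 0.677 and 0.847.

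In the Wnt pathway, which carries short-range signals in development, 35 of 59 tested genes (63 listed) were higher and 6 lower (median log2 change 0.29). Of these, 7 would not have passed the filter on the pCMV6 libraries alone, and 5 of the 7 are among the higher genes. Of 17 tested WNT ligands 10 rose and 1, WNT5A, fell. WNT7A had 4.02, 5.43 and 4.27 CPM with wtZFX, against 0.136, 0.0938 and 0 CPM with pCMV6, and WNT9A had 26.4, 23.7 and 26.9 CPM with wtZFX, against 3.67, 2.63 and 3.23 CPM with pCMV6 (log2 change 3.01, SE 0.11, adjusted p = 4.9e-16). WNT7A had at most 3 reads in any pCMV6 library, so no fold is given, while WNT9A was readily counted in every library. Of the Frizzled receptors 7 of 10 rose and 0 fell. Among them, FZD10 had 1.37, 0.847 and 1.45 CPM with wtZFX, against 0.226, 0.141 and 0 CPM with pCMV6 (log2 change 3.22, SE 0.51, adjusted p = 1.5e-05). FZD10 had at most 0.226 CPM in any pCMV6 library, so its fold rests on few reads. Of 9 other receptors and regulators of receptors 6 rose and 0 fell, and of 16 intracellular components and TCF/LEF factors, 10 rose and 4 fell. With GC and length offsets, 26 members of the pathway were higher and 11 lower. Median GC content of the list was 54.9%.

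**Figure D5:**
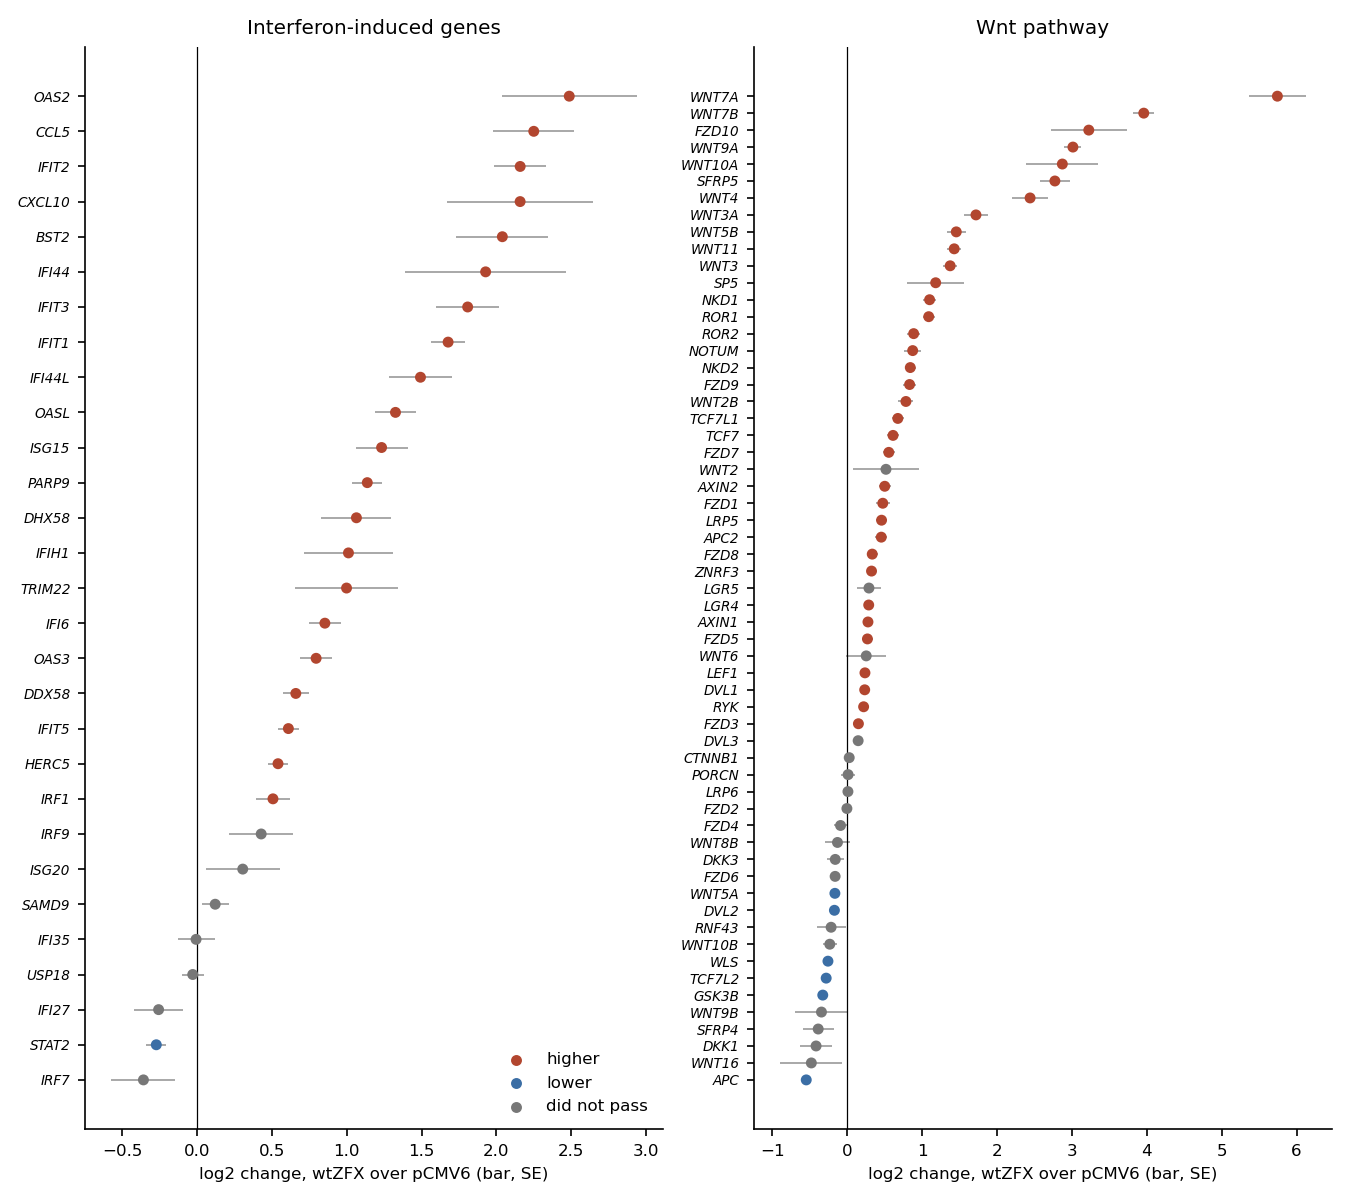
log2 change of wtZFX over pCMV6 with its SE for 29 of the 30 tested interferon-induced genes (left, 1 not shown) and the 59 tested Wnt pathway genes (right), with red for higher, blue for lower and grey for members that did not pass. In the left panel 21 points are red and 1 is blue, and in the right panel 35 are red and 6 blue, where WNT7A rests on at most 3 reads in any pCMV6 library.

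Other signalling lists also held more higher than lower genes. In the Hedgehog pathway 9 of 20 tested genes were higher and 3 lower, a split that turned to 8 higher and 10 lower with GC and length offsets. The 3 lower became 1 without wtZFX replicate 3 or pCMV6 replicate 1, and 2 of the 9 higher are among 3 members that would not have passed the filter on the pCMV6 libraries alone. EVC, a ciliary component of the pathway, averaged 35.3 ± 3.31 CPM with wtZFX and 17.5 ± 1.8 CPM with pCMV6 (log2 change 1.01, adjusted p = 1.1e-05). The ligand SHH had 0.897 to 2.36 CPM with wtZFX, against 0.0453 to 0.328 CPM with pCMV6. The ligand IHH had 1.24 to 2.24 CPM with wtZFX, against 0.0938 to 0.454 CPM with pCMV6. In the Notch pathway 15 of 39 tested genes were higher and 4 lower, and 11 were lower with the offsets. The 4 lower became 1 when wtZFX replicate 1, wtZFX replicate 3, pCMV6 replicate 1 or pCMV6 replicate 2 was left out. DTX1, a Deltex ubiquitin ligase of Notch signalling, had 13, 13 and 13.6 CPM with wtZFX, against 1.58, 1.74 and 1.16 CPM with pCMV6 (log2 change 3.13, SE 0.14, adjusted p = 9.9e-15), and DTX4, of the same family, had 5.01, 5.03 and 5.02 CPM with wtZFX, against 0.679, 0.704 and 0.303 CPM with pCMV6 (log2 change 3.13, SE 0.24, adjusted p = 1.6e-10). In the BMP and TGF-beta pathway 18 of 49 tested genes were higher and 11 lower, which was 7 lower without wtZFX replicate 2 or pCMV6 replicate 1. Its largest rise was in INHBB, an activin and inhibin subunit, at 15.2 ± 0.771 CPM with wtZFX and 3.23 ± 0.264 CPM with pCMV6 (log2 change 2.23, adjusted p = 6.1e-14).

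Of 43 tested receptor tyrosine kinases (50 listed), 27 were higher and 3 lower (median log2 change 0.35), and 17 were higher and 7 lower with GC and length offsets. RET, the receptor for glial cell line-derived neurotrophic factor ligands, had 29.7, 30.4 and 31 CPM with wtZFX, against 4.93, 5.54 and 5.6 CPM with pCMV6 (log2 change 2.504, SE 0.09, adjusted p = 4.9e-16). MST1R, the receptor for macrophage-stimulating protein, had 9.82, 12.3 and 10.4 CPM with wtZFX, against 1.95, 2.39 and 2.47 CPM with pCMV6 (log2 change 2.25, SE 0.14, adjusted p = 5.4e-12), and the ephrin receptor EPHA10 averaged 29.5 ± 1.4 CPM with wtZFX and 9.42 ± 1.43 CPM with pCMV6 (log2 change 1.65, adjusted p = 6.5e-13). Among ephrin receptors 9 of 12 tested rose and 2, EPHA3 and EPHA7, fell. Axon guidance molecules followed with 28 of 53 tested genes higher and 6 lower (55 listed, median log2 change 0.31, median GC content 58.5%), and 13 were lower with the offsets. The netrin receptor UNC5A had 21.2, 21.4 and 21.9 CPM with wtZFX, against 3.98, 4.69 and 5.4 CPM with pCMV6 (log2 change 2.20, SE 0.11, adjusted p = 4.4e-14), and the semaphorin SEMA5B had 7.9, 6.83 and 7.38 CPM with wtZFX, against 1.72, 1.64 and 1.06 CPM with pCMV6 (log2 change 2.31, SE 0.20, adjusted p = 8.4e-10). Semaphorins divided, with 11 of 19 tested higher and 4 lower, whereas 6 of 9 netrins and netrin receptors rose and 0 fell. Slits and ROBO receptors had 1 higher, SLIT3, of 6 tested.

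Developmental transcription factors moved unevenly. Of 38 tested SOX, PAX, LHX, EYA and related genes (45 listed), 21 were higher and 5 lower (median log2 change 0.38), with 3 lower without wtZFX replicate 1 or pCMV6 replicate 3 and 9 lower with GC and length offsets. Of these members 4 would not have passed the filter on the pCMV6 libraries alone, and 3 of the 4 are among the higher genes. PAX genes rose in 6 of 7 tested, and PAX9 fell. PAX2, a kidney and midbrain factor, had 13.7, 12.2 and 11.8 CPM with wtZFX, against 2.31, 1.97 and 1.97 CPM with pCMV6 (log2 change 2.58, SE 0.14, adjusted p = 1.8e-13). LHX1, a LIM homeobox factor of the early kidney, had 16.3, 15.1 and 14.8 CPM with wtZFX, against 3.62, 4.27 and 4.49 CPM with pCMV6 (log2 change 1.90, SE 0.11, adjusted p = 1.7e-12), and SOX18, a factor of endothelial and lymphatic development, had 10.01, 10.5 and 12 CPM with wtZFX, against 0.951, 1.55 and 1.56 CPM with pCMV6 (log2 change 3.01, SE 0.18, adjusted p = 1.6e-12). PAX2 and LHX1 belong to the 293T marker list, in which 7 of 16 rose and 2 fell (0 fell without wtZFX replicate 1). HOX genes, which set position along the body axis, did not rise: 0 of 36 tested were higher and 7 were lower. That count was 3 without wtZFX replicate 1 and 20 with GC and length offsets.

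Of 41 tested collagens and basement membrane genes (44 listed, median GC content 60.3%), 20 were higher and 1 lower, and 16 higher and 10 lower with the offsets. COL6A1, a collagen VI chain, had 146, 153 and 148 CPM with wtZFX, against 42.3, 43.1 and 42.9 CPM with pCMV6 (log2 change 1.80, SE 0.05, adjusted p = 6.2e-18). HSPG2, the basement membrane proteoglycan perlecan, had 40.4, 39.6 and 38.1 CPM with wtZFX, against 11, 8.3 and 10.9 CPM with pCMV6 (log2 change 1.97, SE 0.20, adjusted p = 2.5e-05), and 84.5% of its stranded reads entered the unstranded count. Of the laminins 3 of 10 were higher. The single lower gene became 3 without wtZFX replicate 2. Golgi enzymes of N- and O-glycan processing had 23 of 41 tested members higher and 4 lower (median log2 change 0.21), with 2 lower without wtZFX replicate 1. The mannosidase MAN1C1 had 21.1, 18.6 and 19.2 CPM with wtZFX, against 6.2, 7.18 and 6.61 CPM with pCMV6 (log2 change 1.56, SE 0.10, adjusted p = 5.7e-12), and MGAT5B, a branching glycosyltransferase, averaged 26.1 ± 1.73 CPM with wtZFX and 9.4 ± 0.808 CPM with pCMV6 (log2 change 1.47, adjusted p = 2.4e-12). Voltage-gated channels had 17 of 40 tested members higher and 3 lower, and the potassium channels 9 of 16 higher and 0 lower. The cardiac and neuronal potassium channel KCNH2 had 27.6, 27.8 and 25.6 CPM with wtZFX, against 5.98, 5.16 and 6.21 CPM with pCMV6 (log2 change 2.22, SE 0.09, adjusted p = 1.6e-15), and the presynaptic calcium channel CACNA1B had 41.9, 43.2 and 40.9 CPM with wtZFX, against 10.6, 10.6 and 10.7 CPM with pCMV6 (log2 change 1.98, SE 0.09, adjusted p = 7.5e-15). Neuronal cytoskeleton and synaptic genes were mixed, with 18 of 56 higher and 11 lower, a split that turned to 14 and 19 with the offsets. DPYSL4, a neuronal cytoskeleton regulator, had 57.8, 59.1 and 62.2 CPM with wtZFX, against 16.1, 14.8 and 17.5 CPM with pCMV6 (log2 change 1.89, SE 0.07, adjusted p = 8.8e-16), while SNAP25, of the synaptic vesicle fusion machinery, had 0.589, 0.150 and 0.622 CPM with wtZFX, against 1.95, 1.88 and 1.21 CPM with pCMV6 (log2 change -1.85, SE 0.37, adjusted p = 2.6e-04).

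The series' title names histone H4 acetylation and polymerase pausing. Lists of acetyltransferase complexes, not limited to those that act on H4, and of pausing and elongation factors held more lower than higher genes. In the TIP60 complex, which acetylates histone H4, 9 of 18 genes were lower and 1, MEAF6, was higher (median log2 change -0.15). With wtZFX replicate 1, wtZFX replicate 3 or any 1 of the pCMV6 libraries left out, 0 were higher. In the MSL, NSL, HBO1 and MOZ acetyltransferase complexes 13 of 23 were lower and 1, WDR5, was higher, a call lost with GC and length offsets (median log2 change -0.18). EPC1, a scaffold subunit of TIP60, had 29.9, 28.2 and 30.2 CPM with wtZFX, against 43.7, 45.5 and 44.1 CPM with pCMV6 (log2 change -0.59, SE 0.06, adjusted p = 6.3e-08), with 69.6% of its stranded reads counted without strand. BRD8, a bromodomain subunit, averaged 96.9 ± 3.89 CPM with wtZFX and 128 ± 3.52 CPM with pCMV6 (log2 change -0.40, adjusted p = 4.7e-07). KAT6B, the MORF acetyltransferase, averaged 56.3 ± 3.07 CPM with wtZFX and 72.8 ± 3.28 CPM with pCMV6 (log2 change -0.37, adjusted p = 5.7e-04), and BRPF3, a scaffold of the HBO1 complex, averaged 71 ± 2.22 CPM with wtZFX and 94.2 ± 4.0 CPM with pCMV6 (log2 change -0.41, adjusted p = 2.7e-05). None of the falls in the second list reached 1.5-fold, and 1 in the first did, EPC1. Among pausing and elongation factors 14 of 32 tested genes (34 listed) were lower and 2 higher (median log2 change -0.14). That count was 8 without wtZFX replicate 2 or pCMV6 replicate 3. All 4 NELF subunits, which hold paused polymerase, lay between -0.10 and -0.06 and did not pass the test. In the PAF1 elongation complex CDC73 averaged 59.96 ± 2.02 CPM with wtZFX and 78.3 ± 0.994 CPM with pCMV6 (log2 change -0.39, adjusted p = 2.2e-06) and CTR9 averaged 129 ± 4.56 CPM with wtZFX and 166 ± 6.36 CPM with pCMV6 (log2 change -0.36, adjusted p = 2.8e-06), whereas RTF1 averaged 105 ± 3.6 CPM with wtZFX and 81.2 ± 1.85 CPM with pCMV6 (log2 change 0.37, adjusted p = 1.8e-06). With GC and length offsets 12, 17 and 20 genes of these lists were lower.

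Histone deacetylases and corepressors were balanced, with 7 of 33 tested higher and 7 lower, and 15 lower with the offsets. HDAC11 was the largest rise with 32.6, 34.4 and 32.7 CPM with wtZFX, against 8.38, 8.45 and 8.28 CPM with pCMV6 (log2 change 1.99, SE 0.10, adjusted p = 4.0e-14). Polycomb group genes had 12 of 29 lower and 3 higher. The higher genes included PHC2, a subunit of Polycomb repressive complex 1, at 159 ± 8.28 CPM with wtZFX and 86.5 ± 1.4 CPM with pCMV6 (log2 change 0.87, adjusted p = 1.9e-12), and the lower ones EED, a core subunit of the complex that methylates histone H3, at 37 ± 2.13 CPM with wtZFX and 47.7 ± 1.56 CPM with pCMV6 (log2 change -0.36, adjusted p = 4.9e-05).

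Genes of DNA replication were lower in 24 of 44 cases and higher in 4 (median log2 change -0.15). ORC1, which binds replication origins, had 73.3, 74.5 and 70.6 CPM with wtZFX, against 117, 113 and 118 CPM with pCMV6 (log2 change -0.67, SE 0.05, adjusted p = 1.7e-10). All 4 RFC clamp loader subunits tested and 6 of 7 polymerase and primase subunits fell, by at most 0.36 on the log2 scale. Of the origin and licensing factors ORC1, ORC6, CDC6, CDT1 and CDC45, all but ORC6 fell. The 4 higher genes were GINS2, CHAF1B, CCNE1 and E2F1. CCNE1, cyclin E1, had 42.5, 39.4 and 39.5 CPM with wtZFX, against 25.9, 27.5 and 25.9 CPM with pCMV6 (log2 change 0.61, SE 0.09, adjusted p = 8.8e-06), and E2F1 averaged 189 ± 5.0 CPM with wtZFX and 138 ± 3.53 CPM with pCMV6 (log2 change 0.45, adjusted p = 3.0e-08). CHAF1B, a histone chaperone subunit of replication, averaged 71.5 ± 1.87 CPM with wtZFX and 49.1 ± 1.72 CPM with pCMV6 (log2 change 0.54, adjusted p = 1.9e-07). Of 40 mitotic genes 17 were lower and 1 higher (median log2 change -0.12), with KIF2C, a microtubule-depolymerising kinesin, at 95.9 ± 4.07 CPM with wtZFX and 130.2 ± 4.82 CPM with pCMV6 (log2 change -0.44, adjusted p = 1.6e-07). With GC and length offsets 27 replication and 19 mitotic genes were lower. Ribosome biogenesis genes had 16 of 47 lower and 4 higher (10 lower without wtZFX replicate 2, 26 with the offsets), and cytosolic aminoacyl-tRNA synthetases had 9 of 20 lower and 0 higher (15 lower with the offsets). EPRS, the glutamyl-prolyl-tRNA synthetase, averaged 356 ± 8.24 CPM with wtZFX and 438 ± 10.6 CPM with pCMV6 (log2 change -0.30, adjusted p = 2.2e-05).

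Of the ribosomal protein genes 2 of 78 were higher and 0 lower, but 18 and 15 were called with the offsets and 16 were higher with only the 6 libraries in the fit. One of the 2, RPS23, had only 9.52% of its stranded reads in the unstranded count, and its call was lost with both stranded columns summed (log2 change 0.06, adjusted p = 0.35). Of the 13 mitochondrially encoded mRNAs 0 were called, and 8 were higher with the offsets. MT-CO1 had 7146, 7162 and 6903 CPM with wtZFX, against 7334, 7075 and 6982 CPM with pCMV6, with overlapping groups (log2 change -0.01, SE 0.04, adjusted p = 0.85). Heat shock chaperones had 9 of 18 tested members higher and 2 lower, led by the cochaperone BAG3 at 73.5 ± 2.47 CPM with wtZFX and 42.8 ± 0.951 CPM with pCMV6 (log2 change 0.78, adjusted p = 6.5e-11). Endoplasmic reticulum stress genes had 7 of 23 higher and 3 lower, with 3 higher without wtZFX replicate 1, wtZFX replicate 3 or pCMV6 replicate 2 and 4 without pCMV6 replicate 1. The 3 lower became 1 without wtZFX replicate 2 and 6 with the offsets. The stress sensor kinase ERN1 rose to 62.2 CPM with wtZFX, against 30.2 CPM with pCMV6 (log2 change 1.04, adjusted p = 8.3e-12). Of 25 p53 targets 5 were higher and 8 lower (3 higher without wtZFX replicate 1, wtZFX replicate 3 or pCMV6 replicate 2). Counts were 7 higher and 8 lower of 26 ATF4 targets, 8 and 7 of 32 cholesterol genes, and 4 and 7 of 37 glycolysis and hypoxia genes. Without pCMV6 replicate 3 the lower genes numbered 4, 4 and 3, and without wtZFX replicate 1 there were 5 lower ATF4 targets and 3 lower glycolysis genes. EPAS1, the hypoxia-inducible factor HIF-2 alpha, stood out among the last of these at 69.8 ± 5.09 CPM with wtZFX and 19.4 ± 2.26 CPM with pCMV6 (log2 change 1.84, adjusted p = 6.3e-15).

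The ZFX12_13 construct was expressed at 18895 ± 3282 CPM and did not differ detectably from wtZFX in ZFX level (log2 change -0.28, adjusted p = 0.123). The comparison of wtZFX with ZFX12_13 uses the same wtZFX libraries as the comparison with pCMV6, so it is given as levels beside one another. Over all tested genes 10.6% were higher and 9.73% lower with wtZFX than with ZFX12_13. Of the 4488 genes higher than with pCMV6, 1545 were higher and 507 lower with wtZFX than with ZFX12_13. Of the 3714 genes lower than with pCMV6, 17 were higher and 544 lower. Of the 10 leading rises 7 were higher and 2 lower with wtZFX than with ZFX12_13, and of the 10 leading falls 0 and 4. All these sets were chosen on the same wtZFX libraries, which favours these directions. SLC22A31 averaged 12.1 ± 1.66 CPM with ZFX12_13, below its wtZFX level (log2 change 1.70, adjusted p = 1.3e-11), and ATP2B3 averaged 3.09 ± 0.345 CPM (log2 change 1.68, adjusted p = 1.1e-07). RET averaged 12.2 ± 0.883 CPM (log2 change 1.32, adjusted p = 5.3e-11), CACNA1B 14.6 ± 2.1 CPM (log2 change 1.52, adjusted p = 6.8e-12) and AHNAK2 43.1 ± 8.68 CPM (log2 change 1.67, adjusted p = 1.1e-07). These genes stood between the empty vector and the wild type. MAP6, at 27.9 ± 1.61 CPM (log2 change -1.24, adjusted p = 2.3e-09), and PTH1R, at 23.5 ± 0.789 CPM (log2 change -0.72, adjusted p = 1.1e-06), were higher with ZFX12_13 than with wtZFX, as were KCNH2 at 48.1 ± 1.56 CPM (log2 change -0.83, adjusted p = 5.0e-09) and INHBB at 25.2 ± 1.06 CPM (log2 change -0.73, adjusted p = 6.6e-07). NR5A1, at 18.7 ± 3.17 CPM, did not differ detectably (log2 change -0.24, adjusted p = 0.171).

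In LN-229 cells, which share no library with the DKO cells, an siRNA against ZFX left 3025 genes (17.1% of 17684 tested) lower and 2439 (13.8%) higher than the control siRNA. Of 15973 genes tested in both lines, 3616 were higher with wtZFX, and 1397 of these were lower with siZFX, 38.6% of the first list and 49.2% of the second. Another 280 (7.74%) were higher with siZFX. Of the 3453 genes lower with wtZFX, 992 were higher with siZFX (28.7% and 42.9%) and 281 (8.14%) were lower. Over all genes tested in both lines, 17.8% were lower and 14.5% higher with siZFX. The share of wtZFX-raised genes that were lower with siZFX was 46.1%, 39.9%, 42.7% and 33.1% by rising quartile of GC content, beside 15.8%, 17.7%, 19.4% and 18.4% of all genes in those quartiles.

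Single genes had opposite signs in the 2 lines. DPYSL4 had 5.84, 6.11 and 5.51 CPM with siZFX, against 40.8, 36.7 and 40.7 CPM with siControl (log2 change -2.76, adjusted p = 2.6e-12). DTX1 (log2 change -2.22, adjusted p = 7.4e-07), HDAC11 (log2 change -2.61, adjusted p = 5.8e-06), MAN1C1 (log2 change -2.51, adjusted p = 1.4e-08), CCNE1 (log2 change -1.33, adjusted p = 1.7e-05) and CHAF1B (log2 change -1.12, adjusted p = 2.9e-07) were also lower with siZFX and higher with wtZFX. Of the 10 leading falls, all tested in LN-229, 4 were higher and 0 lower with siZFX: GORAB, RAB30, ENPP5 and RGL1, by 0.28, 0.53, 0.94 and 0.32 on the log2 scale. Of the 4 leading rises tested there, PDGFA was lower (log2 change -0.42, adjusted p = 7.6e-04), and MAP6 (log2 change -2.38, adjusted p = 0.0614), SUSD2 (log2 change 0.89, adjusted p = 0.391) and CABP7 (log2 change 0.25, adjusted p = 0.87) did not pass. Other genes did not mirror: FLNA rose with wtZFX and did not pass the test with siZFX (log2 change 0.04, adjusted p = 0.779), ORC1 fell with wtZFX and did not pass with siZFX (log2 change -0.16, adjusted p = 0.178), and AHNAK2 was higher in both comparisons (log2 change 0.52, adjusted p = 7.3e-04). The other 6 leading rises, among them PTH1R, NR5A1 and WNT7B, had too few reads in LN-229 to be tested.

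Calls differed in share between chromosomes. The share of higher genes was 32.0% on chromosome 22, 30.5% on 20 and 29.4% on 16, against 15.4% on chromosome 6 and 15.5% on the X chromosome, where ZFX and ZNF711 lie. The share of lower genes ran the other way, at 11.4% on chromosome 22 and 11.7% on 16, against 24.8% on chromosome 6 and 23.7% on the X chromosome. The part of GC content in these shares was not tested.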

How the data were processed

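RNA-seq libraries (total RNA, a kit that does not mark strand) were deposited by the authors as raw read counts per gene, unstranded and per strand. Among the tools in the submitters' processing notes are DESeq2, HTSeq and STAR, with hg38 as the build, and versions and roles are not given in the sources used here. Unstranded counts were used, so reads of overlapping genes on opposite strands are partly lost. The 9 DKO libraries were fitted together with edgeR 4.0.16 (R 4.3.3; TMM factors, filterByExpr, robust quasi-likelihood test), and wtZFX was set against pCMV6. LN-229 libraries were fitted apart. P-values were adjusted by Benjamini-Hochberg over all tested genes at 0.05. CPM uses TMM-scaled totals of tested genes. Errors are SD over 3 libraries, or the SE of the log2 change.

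Named genes were the targets, the 10 largest rises and falls of protein-coding genes, up to 4 members of each list, and the 10 largest rises and falls in CPM. Members and lists were chosen with earlier results of these data known. In simulated counts, 74, 72 and 54 genes were changed 1.5-, 2- and 4-fold. The wtZFX against pCMV6 fit recovered 70.3%, 83.3% and 98.1% of them, with 15 false calls among 19018 genes. Far fewer genes were changed there than were called in the data, so these values are not error rates of the lists given here. Alternatives covered scaling, filters, DESeq2 1.42.0, a replicate block, left-out libraries and GC offsets. Intervals cover the spread of libraries only. Some genes of the lists are counted but not reported here by name.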

Additional observations from a re-analysis of the deposited data

Results flagged for a closer look

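Signal also lay in reads that the unstranded counts leave out. With both stranded columns summed, 2258 genes were tested that the unstranded counts did not let through the filter, and 390 of them were higher with wtZFX than with pCMV6 while 203 were lower (edgeR quasi-likelihood test, adjusted p under 0.05). Of these called genes 43 were protein-coding. Over all 21634 genes tested on the summed columns 5129 were higher and 3973 lower, so both shares were smaller among the 2258 genes. Since the kit does not mark strand, reads of a gene and of its partner on the opposite strand cannot be told apart in these columns.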

How the results depend on the processing

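Against 4488 higher and 3714 lower genes, RLE factors gave 4582 and 3531, ZFX left out of library sizes 4683 and 3402, no filter 4490 and 3444, a filter at 1 CPM 4328 and 3634, the 6 libraries alone 5059 and 4543, summed stranded columns 5129 and 3973, and DESeq2 4241 and 3085. Upper-quartile factors (4134 and 4356) and GC and length offsets (3987 and 5349, chosen after seeing the data) turned the majority, and the cause was not tested. For genes higher with wtZFX, at least 1.5-fold, the offsets gave 1742, and leaving out 1 library gave 2122 to 2167. For genes lower with wtZFX, at least 1.5-fold, the offsets gave 811, and leaving out 1 library gave 442 to 535. Leaving out 1 library gave 3973 to 4260 higher and 2857 to 3032 lower genes. The replicate block gave 4481 and 3697. Deviations from the group mean correlated at 0.0166, 0.0278 and 0.0233 between libraries of the same number, each the highest for its library. Libraries of different numbers gave -0.0201 to -0.00388. All these values are small, and whether libraries of the same number were handled together was not tested. None of the 179 named genes changed direction under these alternatives, and 10 lost their call with the offsets. Depth and 3 libraries a group limit genes of few reads.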
